A study of Mus musculus with 9 samples.

Results

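Diablo, Casp9 and Btg2 are 3 genes of cell death and growth arrest each of which the platform annotation gives as the only gene of a probe. They had 4 probes in all, of 16128 on the array, with 2 for Diablo and 1 each for Casp9 and Btg2, and they are 3 of the 7117 genes that had a probe of their own. They were selected on values of these arrays: Diablo had a ratio below 0 and Btg2 a ratio above 0 at 15 days that passed the test over all features. The 15-day values of the 3 genes are therefore described without a test, and the same holds for the 12-day values of Casp9, since it is not recorded whether those drew attention to it.

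Diablo, also called Smac, encodes a protein of the mitochondrial intermembrane space that is released when the outer membrane is breached and then binds the inhibitor of apoptosis proteins, lifting their block on caspases. Casp9 encodes caspase-9, the initiator protease that is activated on the Apaf1 and cytochrome c complex called the apoptosome and then starts the caspase cascade. Btg2, also called Tis21 or Pc3, is an early-response gene that p53 can induce; its product slows the cell cycle and links messenger RNAs to the CCR4-NOT complex, which shortens their poly(A) tails. In the testis of mice without Spo11, the enzyme that cuts DNA to start meiotic recombination, spermatocytes fail in meiotic prophase and die by apoptosis, and cell death genes bear on that stage.

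Total RNA of whole testis was compared on 2-colour spotted cDNA arrays, with 1 Spo11-/- sample against 1 wild type sample on each of 9 arrays. On 4 arrays both mice were 15 days old and the knockout RNA carried Cy3 throughout. With no dye swap at that age, a genotype difference at 15 days cannot be told apart from a dye effect on the same probe. On 5 arrays both were 12 days old, and the knockout RNA carried Cy5 on replicates 1, 4 and 5 and Cy3 on replicates 2 and 3. The design text describes 4 repeats, each with another pair of mice of 1 litter, and leaves unsaid which of the 5 arrays at 12 days it covers and whether any of those shared RNA. Each array counted as 1 replicate, so p-values measure the spread between arrays, which may in part be technical at 12 days. The sources used here name neither the strain nor the targeted allele. The values are log2 ratios of the 2 channels, which carry no expression level, so the tissue could not be checked against its markers and the 3 genes cannot be ranked by level. No probe was annotated to Spo11.

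The direction of the ratios was not settled by the values. If the 15-day ratios are Cy5 over Cy3, values below 0 mean more RNA in the knockout. If they were instead deposited with the knockout on top, values below 0 mean less. The 15-day arrays correlated with 12-day replicate 3, which has the same dye orientation, at r = -0.38 to -0.33, and with replicate 2 at -0.25 to -0.11, across probes, which are not independent. The 15-day values are thus given with their deposited sign, and statements of direction at 15 days are made under both readings. The second reading turns the 15-day arrays only. The 12-day values are given as deposited or, where said, turned by the labels. That turning takes Cy5 over Cy3 for granted and puts the knockout on top. Whether it holds for the 12-day arrays was not tested. As deposited, 12-day arrays of opposite dye orientation correlated with each other at r = 0.0 to 0.29, none below 0. Those of the same orientation correlated at -0.13 (replicates 1 and 5) to 0.45 (replicates 1 and 4). Values of neighbouring probes resembled each other, with r between a probe and the next of 0.23 to 0.48 at 15 days and 0.11 to 0.65 at 12 days, the highest on 12-day replicate 5. For each probe the median of the 100 probes before it and the 100 after it on the same array is therefore given beside its value.

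The 250 bases before the start of each gene are shown because the regulation of the 3 differs, with Btg2 known for its response to p53 and to growth signals. They are taken from RefSeq (GRCm38.p6), which matched all 3 genes, and run 5′ to 3′ on the strand of the gene. Capitals mark the GC box GGGCGG, the CCAAT box CCAAT and the cyclic AMP response element TGACGTCA, each searched on both strands.
Diablo, chr5:123524165-123524414, minus strand: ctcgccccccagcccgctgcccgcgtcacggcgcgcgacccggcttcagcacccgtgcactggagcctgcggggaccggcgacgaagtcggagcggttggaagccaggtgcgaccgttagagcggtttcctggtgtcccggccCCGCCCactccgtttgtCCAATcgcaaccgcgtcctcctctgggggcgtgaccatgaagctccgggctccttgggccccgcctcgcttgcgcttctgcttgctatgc
Casp9, chr4:141793362-141793611, plus strand: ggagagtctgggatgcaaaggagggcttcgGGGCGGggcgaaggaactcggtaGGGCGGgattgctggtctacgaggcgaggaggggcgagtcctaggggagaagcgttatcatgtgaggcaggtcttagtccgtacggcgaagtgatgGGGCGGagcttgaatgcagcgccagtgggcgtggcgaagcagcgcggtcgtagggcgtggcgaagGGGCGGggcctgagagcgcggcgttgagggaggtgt
Btg2, chr1:134079156-134079405, minus strand: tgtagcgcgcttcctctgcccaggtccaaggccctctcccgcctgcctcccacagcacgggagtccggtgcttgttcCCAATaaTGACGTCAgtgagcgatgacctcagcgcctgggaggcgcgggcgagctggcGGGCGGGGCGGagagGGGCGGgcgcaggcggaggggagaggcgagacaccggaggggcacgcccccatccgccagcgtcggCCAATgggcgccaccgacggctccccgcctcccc
Btg2 held 3 GC boxes, of which 2 overlap, 2 CCAAT boxes and 1 cyclic AMP response element, which starts at position -166 before the gene. Casp9 held 4 GC boxes and neither of the other motifs, and Diablo 1 GC box and 1 CCAAT box. Of 32817 RefSeq promoters of the same length, 32.7% held a GC box, 33.8% a CCAAT box and 1.55% the cyclic AMP response element. The bases G and C made up 70.4% of the window of Diablo, 66% of Casp9 and 73.2% of Btg2. The median over all promoters was 52.4%, so these shares are not matched for base content. The p53 half-site consensus had no match in the 3 windows and was found in 7.12% of all promoters. These matches are letters in a window, and no factor was measured. The genes themselves lie on chromosome 5 (Diablo), chromosome 4 (Casp9) and chromosome 1 (Btg2), so they are not neighbours. The arrays were spotted with cDNA clones, and the positions of the clones within the genes were not used here.

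Diablo, the release factor that frees caspases from their inhibitors, had the largest ratio of the 3. Its first probe lay at -1.35, -1.61, -0.78 and -0.61 on 15-day replicates 1 to 4, and its second probe at -1.0, -0.45, -0.86 and 0.07. The 2 probes had the same sign on 3 of the 4 arrays and parted on replicate 4, where the second lay next to 0. The first probe averaged -1.09 ± 0.47 and the second -0.56 ± 0.48 (SD, n = 4 each). Averaged per gene, Diablo lay at -1.175, -1.03, -0.82 and -0.27, below 0 on every array and least so on replicate 4. The mean was -0.82 ± 0.40 (SD, n = 4; limma SE 0.15), a 1.77-fold ratio and the 68th lowest of 6958 genes. By comparison 23.1% of 6697 genes with 4 values were below 0 on all 4 arrays and 14.4% above (37.5% in either direction), and 11.2% of the 6958 genes tested passed the limma test there, 7.2% below 0 and 4.04% above. Diablo's spread between arrays was larger than that of 91.3% of genes, whose median SD was 0.20. Without each array in turn the mean lay between -1.01 and -0.71.

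At 12 days Diablo stayed closer to 0. As deposited, the first probe lay at 0.19, 0.19, 0.27, 0.30 and -0.374 on replicates 1 to 5, and the second at 0.38, 0.05, 0.33, 0.22 and -0.021. Both were above 0 on replicates 1 to 4, with knockout in Cy5 on 2 of these and in Cy3 on the other 2, and below 0 on replicate 5. The sign did not follow the dye of the knockout, and the dye term of the model was 0.16. The knockout coefficient was -0.05 (SE 0.11, 95% interval -0.30 to 0.21, limma adjusted p = 1.0), with 2 of 5 arrays above 0 and 3 below after turning. The coefficient was the 2200th lowest of 6237 genes.

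The probes of Diablo differed in how they followed their surroundings. The neighbours of the first probe had medians of -0.02, -0.01, 0.46 and 0.11 at 15 days, and relative to them the probe lay between -1.60 and -0.72. Those of the second had medians of -0.26, -0.12, -0.31 and -0.06, below 0 like the probe on replicates 1 to 3. After subtraction the first probe averaged -1.22 and the second -0.37, and the gene -0.80 ± 0.34, the 75th lowest of 6958. Over the 9 arrays the first probe had r = -0.06 with its neighbours and the second r = 0.90. The median r was 0.55 over 9546 probes with 9 values. The probes followed each other at r = 0.82 over the 9 arrays, which both probes share. After the same subtraction Diablo was above 0 on all 5 arrays at 12 days, at 0.29, 0.11, 0.26, 0.27 and 0.19, whichever dye the knockout carried.

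**Figure D1:**
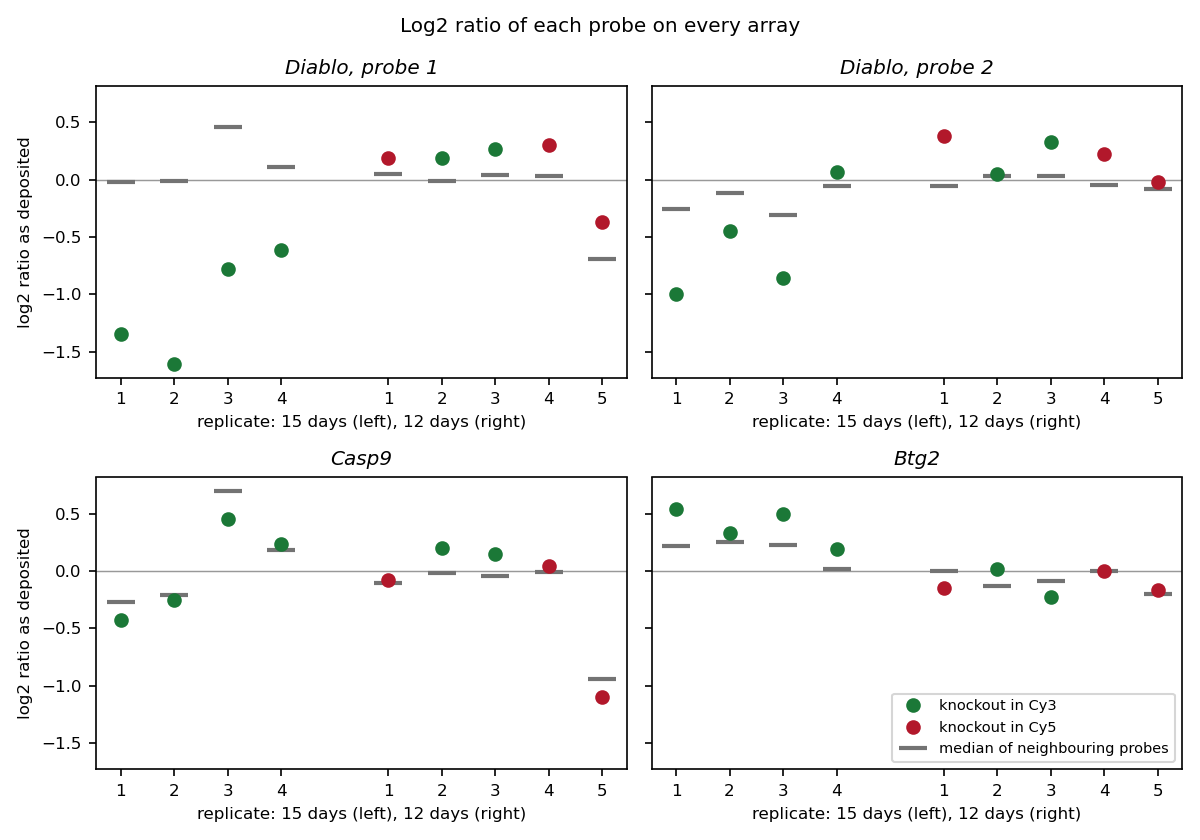
Log2 ratio as deposited (vertical axis) of the 4 probes on each of the 4 arrays at 15 days and the 5 at 12 days; green points have knockout RNA in Cy3, red points in Cy5, and grey bars are the median of the 100 probes on each side. The first Diablo probe lies from -1.61 to -0.61 at 15 days, far below its neighbours, while Casp9 at -1.10 on 12-day replicate 5 sits beside neighbours at -0.94.

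Casp9, the initiator caspase of the mitochondrial pathway, had no common direction at 15 days. It lay at -0.43, -0.25, 0.45 and 0.24 on replicates 1 to 4, below 0 on the first 2 arrays and above 0 on the other 2. The mean was 0.00 ± 0.41 (SD, n = 4; limma SE 0.15), in the middle of the 6958 genes (3755th from the lowest), with a spread larger than that of 92.4% of them. Its sign turned with the array left out, between -0.15 without replicate 3 and 0.15 without replicate 1. The scatter followed the surroundings of the probe. Its neighbours had medians of -0.27, -0.21, 0.70 and 0.18 on the same arrays, and after subtraction Casp9 lay at -0.16, -0.04, -0.24 and 0.06, a mean of -0.10 ± 0.13.

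At 12 days Casp9 lay at -0.08, 0.20, 0.15, 0.04 and -1.10 on replicates 1 to 5 as deposited. Replicates 1 to 4 were within 0.20 of 0, and replicate 5 was far below them. Turned to knockout over wild type, the values were -0.08, -0.20, -0.15, 0.04 and -1.10, with 4 of 5 arrays below 0. The knockout coefficient was -0.28 (SE 0.18), the 108th lowest of 6237 genes, and -0.10 without replicate 5, so that this array supplied most of it. The neighbours of the probe had a median of -0.94 on replicate 5, and the probe lay 0.16 below them. With neighbours subtracted the coefficient was -0.12 (SE 0.07). Over the 9 arrays Casp9 had r = 0.94 with its neighbours, above that of 97.9% of probes. The part of the surroundings in its values was not tested beyond this subtraction.

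Btg2, the growth-arrest gene, was above 0 on every array at 15 days, with values of 0.54, 0.33, 0.50 and 0.19. It varied less than the other two: the mean was 0.39 ± 0.16 (SD, n = 4; limma SE 0.11), a 1.31-fold ratio, with a spread larger than that of 33.3% of genes. The rank was 416th from the highest of 6958. Its neighbours lay above 0 as well, with medians of 0.22, 0.25, 0.23 and 0.02. After subtraction Btg2 lay at 0.33, 0.08, 0.27 and 0.17, still above 0 on each array, with a mean of 0.21 ± 0.11 and a rank of 961st from the highest. Btg2 had r = 0.88 with its neighbours over the 9 arrays.

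At 12 days Btg2 lay at -0.15, 0.02, -0.23, 0.00 and -0.164 as deposited, between -0.23 and 0.02 with no order by dye. The knockout coefficient was 0.00 (SE 0.09, 95% interval -0.21 to 0.21, limma adjusted p = 1.0), with 1 of 5 arrays above 0 after turning, 3 below and 1 at 0. Over all 10075 features limma passed 0 at 12 days (0%), with 269 (2.67%) at an unadjusted p under 0.05, among them neither Diablo nor Btg2.

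**Figure D2:**
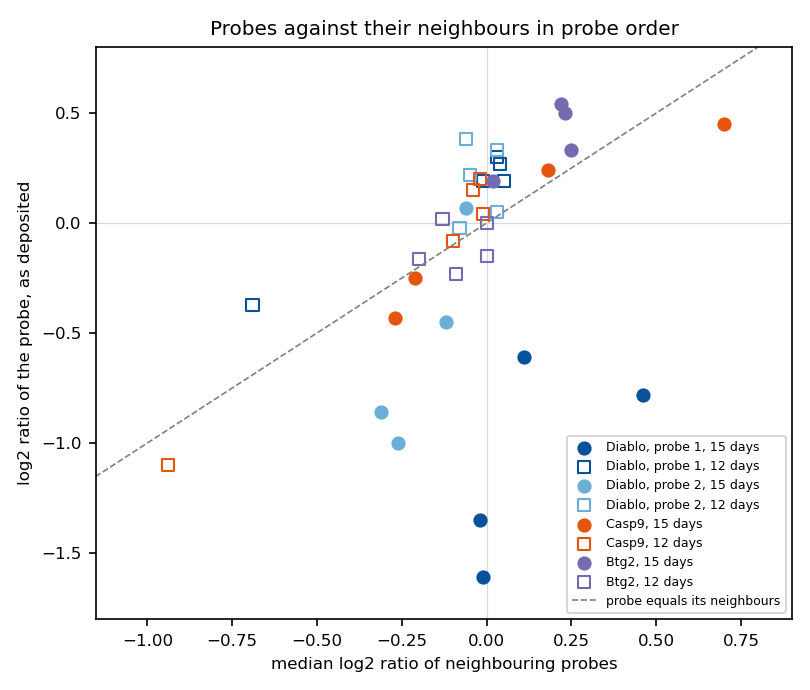
Log2 ratio of each probe as deposited (vertical axis) against the median of the 100 probes on each side on the same array (horizontal axis), for 4 probes on 9 arrays; filled circles are 15 days, open squares 12 days, and on the dashed line a probe equals its neighbours. Casp9 runs along the line from -1.10 to 0.45, whereas the first Diablo probe at 15 days lies far below it.

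Whether the knockout effect on the 3 genes differed between the ages was described under both readings. The model with a shared dye term sets the 15-day arrays against 12-day replicates 2 and 3, which have the same orientation. On those 2 arrays Diablo averaged 0.21 as deposited, Casp9 0.17 and Btg2 -0.11. Turned by the labels, the knockout over wild-type ratio of Diablo was higher at 15 days by 1.03 (SE 0.25), that of Casp9 by 0.17 (SE 0.33), and that of Btg2 differed by -0.50 (SE 0.17). With the 15-day sign turned the differences were -0.61 (SE 0.25) for Diablo, 0.18 (SE 0.33) for Casp9 and 0.29 (SE 0.17) for Btg2. The 12-day arrays kept the label reading in both cases, and a reading with the knockout on top on every array is not given. For Diablo the arrays of the 2 ages overlapped under both readings. Turned by the labels, it lay at 0.27 to 1.175 at 15 days and at -0.30 to 0.285 at 12 days. This held for its second probe alone, whereas the first probe alone did not overlap under either reading. For Btg2 they did not overlap by the labels, with -0.54 to -0.19 at 15 days and -0.164 to 0.23 at 12 days, and did with the sign turned. Without subtraction, the share of genes whose ages do not overlap was 10.2% of 5381 by the labels and 5.84% with the sign turned. No test is given, as the 15-day values chose 2 of the genes.

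**Figure D3:**
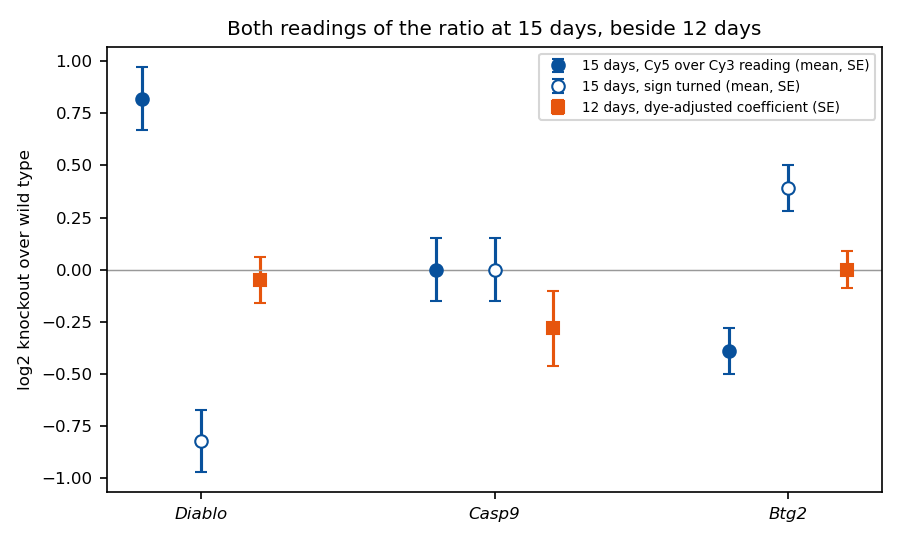
Log2 knockout over wild-type ratio (vertical axis) of the 3 genes at 15 days turned by the labels, as Cy5 over Cy3 (filled circles), and with the sign turned (open circles), with the mean and limma SE of 4 arrays, and at 12 days (squares) with the dye-adjusted coefficient and its SE from 5 arrays. Diablo lies at 0.82 or -0.82 and Btg2 at -0.39 or 0.39 by the reading at 15 days, and both lie at -0.05 and 0.00 at 12 days.

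Diablo and Btg2 ran opposite to each other over the 9 arrays (r = -0.90, and -0.77 after subtraction of the neighbours). This is a description over arrays of both ages, which the genes share. Both genes were selected on values of the older age, at which their ratios had opposite signs. A negative r over the 9 arrays was therefore favoured by the selection, and no conclusion on the pair is drawn from it. Casp9 had r = 0.18 to Diablo and 0.19 to Btg2 as deposited, and 0.62 and -0.51 after subtraction. Among 5380 other genes with 9 values, those most like Diablo were Prr14 (r = 0.97), Dad1 (0.97), which encodes a subunit of the oligosaccharyltransferase of the endoplasmic reticulum, Bpnt1 (0.96), a nucleotidase gene, and Rbm14 (0.96), which encodes an RNA-binding protein. With every array turned to knockout over wild type by the labels, Prr14 and Bpnt1 were still the first 2 (r = 0.95 each), whereas Dad1 had r = 0.57. Most like Btg2 were Apc (0.96), the tumour suppressor gene of Wnt signalling, Gprasp1 (0.95), Arhgap20 (0.95) and Cul4b (0.94), a scaffold of ubiquitin ligases. Most like Casp9 were Ehbp1l1 (0.99), Hoxb1 (0.97), a homeobox gene, Pold2 (0.97), a subunit gene of DNA polymerase delta, and Zfp62 (0.97). All these genes were picked for the highest r in the same values, so a high r was favoured by the choice and no conclusion is drawn. After subtraction of the neighbours Diablo had r = 0.92 to 0.97 with its 4 genes. Casp9 then had r = 0.90 with Ehbp1l1, 0.87 with Pold2, 0.59 with Zfp62 and 0.56 with Hoxb1. Btg2 had r = 0.83 with Arhgap20, 0.78 with Cul4b, 0.76 with Apc and 0.52 with Gprasp1.

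The rest of the pathway was mostly without a call at 15 days. Of 47 other genes of 6 lists on apoptosis, p53 and the partners of Btg2, 1 passed above 0 and 1 below, or 4.26%, against 11.2% of all 6958 genes tested. The gap between these shares depended on the arrays: without replicate 3, 2 of 47 passed against 2.95% of all genes, and without replicate 1, 2 or 4, 1 of 47 passed against 4.64%, 4.25% and 9.16%. The median of the 47 genes was -0.01, beside -0.02 for all genes. Of 10 mitochondrial death factors and inhibitor of apoptosis genes, only Birc5 passed, below 0 (10% of the list, beside 11.2% of all genes in either direction). Birc5 encodes survivin, which acts in cell division as well as in apoptosis, and it lay at -0.32, -0.47, -0.45 and -0.36 with a mean of -0.40 (SE 0.10, limma adjusted p = 0.031). All 4 arrays lay close together, yet the call was lost without any one of them (adjusted p from 0.063 to 0.10). Vdac2, a channel gene of the outer mitochondrial membrane, lay at -0.36 (adjusted p = 0.054) and Vdac3 at -0.27. Birc3 and Birc6, of the family that Diablo binds, lay at 0.03 and 0.10 without a call, and Htra2, a mitochondrial protease gene whose product also binds these inhibitors, at -0.07.

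None of the 4 caspase and apoptosome genes besides Casp9 passed at 15 days. Casp6, an executioner caspase gene, lay at 0.21 (adjusted p = 0.20), Dffb, the gene of the nuclease that cuts DNA in apoptosis, at 0.14, Cycs, the gene of cytochrome c, at 0.00 and Casp12 at -0.07. None of 6 BCL2 family genes passed, with Bcl2l1 and Mcl1, which protect from apoptosis, at -0.24 and -0.03, and none of 3 death receptor genes, with Fas at 0.38 (adjusted p = 0.13). None of 13 other p53-responsive genes passed, and their median was 0.08. Ccng1, cyclin G1, was above 0 on every array (0.21, adjusted p = 0.18), whereas Mdm2, which encodes the ligase that degrades p53, lay at -0.08. Apaf1, Xiap, Birc2, Trp53, Cdkn1a, Btg3, Tob1 and Tob2 were not analysed here.

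Of 12 genes of the BTG family and the CCR4-NOT deadenylase, with which Btg2 acts, only Cnot1 passed, above 0. That is 8.33% of the list, beside 11.2% of all genes in either direction. Cnot1 encodes the scaffold of the complex and lay at 1.18, 1.34, 0.71 and 0.36, with a mean of 0.90 (SE 0.16, limma adjusted p = 0.011). It was above 0 on every array, least on replicate 4, and passed without each array in turn (adjusted p from 0.0049 to 0.035). Cnot6l, a catalytic subunit gene, lay at 0.71, 0.84, -0.13 and 0.32, and among fits with 1 array left out passed only without replicate 3 (0.62, adjusted p = 0.046). The catalytic subunit genes Cnot7 and Cnot8 lay at 0.08 and -0.19, and Btg1, a close relative of Btg2, at -0.08, none with a call. Prmt1, which encodes an arginine methyltransferase that Btg2 binds, lay at 0.32 (adjusted p = 0.16). Cnot1 and Cnot6l had values on 2 arrays at 12 days and were not tested there. For the same reason they were absent from the fit of both ages with a dye term.

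At 12 days none of 39 listed genes passed, and 1 (2.56%) had an unadjusted p under 0.05, against 1.92% of all genes. This was Rrm2b, a p53-responsive ribonucleotide reductase gene, with a knockout coefficient of 0.20 (SE 0.08, limma adjusted p = 1.0). In the other lists the gene of smallest p was Birc6 (0.19), Btg1 (0.14), Casp6 (0.08), Bok (-0.15) or Daxx (-0.02), each with adjusted p = 1.0. For the difference between the ages, none of the listed genes passed under either reading, where 2.28% of 6144 genes passed by the labels and 0% with the sign turned.

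**Figure D4:**
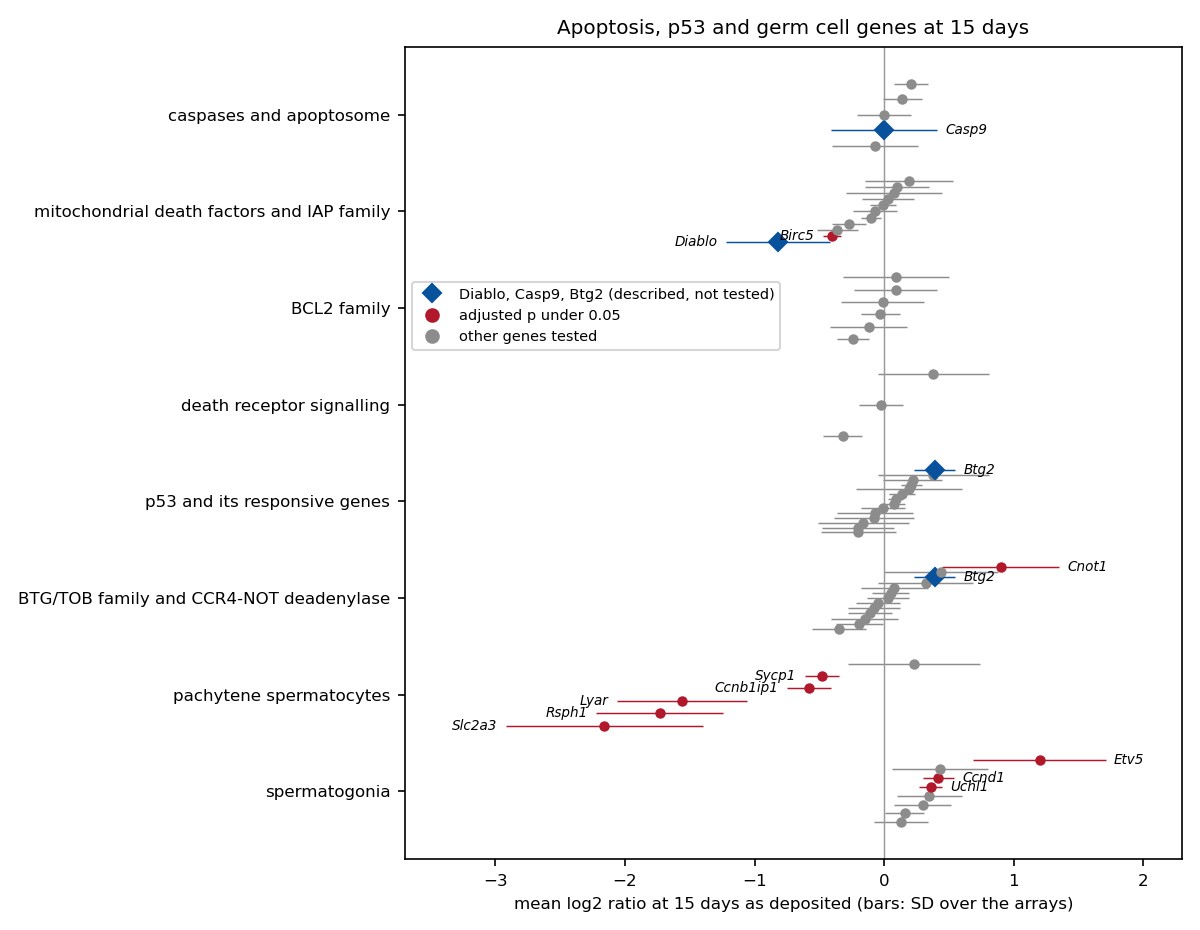
Mean log2 ratio at 15 days as deposited (horizontal axis, bars are the SD over the arrays) of the genes of 6 pathway lists and of 2 lists of germ cell markers. Diablo (-0.82), Casp9 (0.00) and Btg2 (0.39) are blue diamonds, genes with adjusted p under 0.05 are red, and among the pathway genes these are Birc5 and Cnot1.

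Markers of germ cell stages moved at the same age. In whole testis a change in the number of cells of a type cannot be told apart from a change in RNA per cell. Dye effects aside, 15-day values below 0 mean more RNA in the knockout by the labels, and less with the sign turned. The marker lists were chosen with earlier results of these data known, so their counts are a description and no test of the lists. Whether the listed genes are particular to their cell type or stage was not checked. Of 6 markers of pachytene spermatocytes, the cells in mid meiotic prophase, 5 passed below 0 at 15 days, where 7.2% of all genes did. The list median ranged from -1.27 to -0.74 over the arrays. The 5 that passed were Slc2a3 (-2.16), Rsph1 (-1.73), Lyar (-1.56), Ccnb1ip1 (-0.58) and Sycp1 (-0.48), the direction of Diablo. The remaining marker, Sycp3, lay at -0.11, -0.24, 0.87 and 0.4 on replicates 1 to 4. Its mean was 0.23 (limma adjusted p = 0.39), not in the direction of Diablo. Of 8 spermatogonial markers 3 passed above 0, where 4.04% of all genes did, namely Etv5 (1.20), Ccnd1 (0.42) and Uchl1 (0.36), the direction of Btg2, with list medians of 0.21 to 0.41. None of 8 Sertoli cell markers passed, and 1 of 6 Leydig cell, 1 of 4 macrophage and 1 of 4 endothelial and blood markers did, beside 11.2% of all genes in either direction. At 12 days no marker of these lists passed, and turned by the labels the pachytene median ranged from -0.80 to 0.57 over the arrays. The part of the cell types in the values of Diablo and Btg2 was not tested.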

How the data were processed

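The deposited values were log ratios of the 2 channels, taken here as log2, as no source used here states the base, the background correction or the direction. Per the series' design text, the authors used a GenePix 4000A scanner, GenePix 3.0 with its default flags, median centring in Excel and SAM. Per array, 11628 to 14724 of the 16128 probes had values. Scanner intensities were not used here, so the number of arrays limits the precision.

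The platform annotation gave 1 gene for 9604 probes, several for 213 and none for 6311. Symbols were updated by Entrez ID through RefSeq GRCm38.p6 (98.9% matched). Probes of a gene were averaged, and other probes were kept as features. Arrays were centred again, which changed nothing. limma 3.58.1 in R 4.3.3 tested, two-sided with Benjamini-Hochberg adjustment over all features, the 15-day mean against 0 (at least 3 values), the 12-day knockout coefficient with a dye intercept (at least 4 values, both orientations) and the difference between ages with a shared dye term. Fits were tested on simulated data. The genes, lists and tests were chosen with earlier results of these data known.

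The text names the 3 genes, listed genes past the threshold at 15 days, the gene of smallest p at 12 days in each list, direct partners, and the 4 genes of highest r with each of the 3. Vdac2, Vdac3, Birc3, Birc6, Casp6, Casp12, Dffb, Cycs, Bcl2l1, Mcl1, Fas, Ccng1, Mdm2 and Cnot6l were added after their values were seen. Alternatives covered missing values, centring, quantile normalization, scaling, neighbouring probes, robust empirical Bayes, single probes, dye terms, a stricter threshold, direction, the range of the array title numbers and each array left out.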

Additional observations from a re-analysis of the deposited data

Results flagged for a closer look

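Casp9 at 12 days held 1 array far from the others. Turned to knockout over wild type, replicate 5 lay at -1.10, while the other 4 arrays lay between -0.20 and 0.04. The gap was 0.79 of the whole range, above Dixon's limit of 0.71 for 5 samples. The median of the neighbouring probes on that array was -0.94, and Casp9 was -0.16 after its subtraction. Since this array may have drawn attention to the gene, the gap is a description and no test. In groups not chosen by their values, chance alone puts about 1 in 20 groups past this limit, and 6 groups (3 genes at 2 ages) were looked at.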

How the results depend on the processing

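The 15-day mean of Diablo stayed below 0 in 13 of 14 alternatives, the exception being the turned sign (0.82). It lay between -1.01 and -0.71 with each array left out, that of Casp9 between -0.15 and 0.15, and that of Btg2 between 0.34 and 0.46. Btg2 lay at -0.39 with the sign turned and at 0.21 with neighbouring probes subtracted. The 15-day count of 1515 features became 242 at the stricter threshold of adjusted p under 0.01 and 1.5-fold, 763 when both ages were fitted with one dye term by the labels, 17 likewise with the 15-day values turned, and 372 to 1185 with an array left out. At 12 days limma passed 0 features in every alternative run (269 at an unadjusted p under 0.05 in the fit as described, 910 without turning by the dyes, 500 after quantile normalization, 454 after scaling, 702 without replicate 5, 153 without replicate 2 and 165 without replicate 3). The 12-day coefficient of Diablo changed sign with neighbours subtracted (0.03), for the second probe alone (0.00) and without turning by the dyes (0.15), and ranged from -0.09 to 0.03 with an array left out. That of Btg2, at 0.00, changed sign with neighbours subtracted (-0.02), without a dye term (-0.02) and without turning (-0.10), and ranged from -0.06 to 0.06. That of Casp9 ranged from -0.38 to -0.10 and kept its sign. The 231 features that differed between the ages became 796 after quantile normalization, 535 after scaling, 499 with neighbours subtracted, 4 at the stricter threshold, 0 with the 15-day sign turned (650 at an unadjusted p under 0.05), and 10 to 576 with an array left out. With the sign turned the difference was -0.61 for Diablo and 0.29 for Btg2. By the labels with neighbours subtracted it was 0.98 for Diablo, 0.30 for Casp9 and -0.21 for Btg2. With an array left out it was 0.92 to 1.22 for Diablo, 0.03 to 0.32 for Casp9 and -0.62 to -0.37 for Btg2. The causes were not tested. When both ages were fitted with a shared dye term by the labels, Vdac2 passed among listed genes and Birc5 did not. Vdac2 lay at -0.67 in the deposited sign (limma adjusted p = 0.038), which by the labels is 0.67 for knockout over wild type. Each array already holds both genotypes, so the fits of its ratios pair knockout and wild type within an array. Arrays were not paired between the ages, because the replicate numbers follow the order of deposit.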
